A study of Rattus norvegicus with 6 samples.

Results

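The genes described here are 40 cell cycle and DNA replication genes, measured in endothelial cells sorted from the blood vessels of rat abdominal skin. They were listed by symbol for their textbook roles and looked up among the 15037 genes named on the array. A probeset was found for 37 of them, while Mcm5, Bub1b and Top2a had none under their symbol. Tk1, E2f1 and Cdk1 had a mean signal under the filter on dim genes, so 34 entered the tests.

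The animals were 3 Il33 knockout rats (27 and 28 female, 52 male) and 3 wildtype rats (34 and 45 female, 37 male), all of the Sprague-Dawley strain. The sources used here describe neither the deleted allele nor the age of the animals. Skin was digested for 2 h, cells carrying CD45 or Lyve-1 were removed, and cells carrying CD31 were kept. Total RNA of each animal went onto an Affymetrix array of its own. Values by array are on the log2 scale and follow the order 27, 28, 52 for the knockout and 34, 45, 37 for the wildtype, so that the third value of each group is its male.

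Il33, the targeted gene, lay between 8.07 and 9.82 on the log2 scale in the knockout and between 13.86 and 16.60 in the wildtype, a difference of -6.84 (SE 0.73, limma adjusted p = 0.0436). All 15 measured markers of blood endothelium exceeded background on every array. Markers of other cell types were read too. The keratinocyte marker median ran from 7.98 to 10.72 in the knockout and from 7.51 to 13.88 in the wildtype, highest in wildtype 34. The summed signal of these 8 markers, on the log2 scale, ran from 11.80 to 16.01 in the knockout and from 11.46 to 18.82 in the wildtype. Of the 8 keratinocyte markers 1 had the higher mean in the knockout. Of 11 leukocyte markers, 6 were above background on no array, among them Cd3d, Cd3e, Itgam and Csf1r, and 4 were above it on all arrays, Cd68 (8.85 to 10.72), Lcp1 (9.29 to 10.44), Cd74 (6.45 to 9.91) and Lyz2 (6.65 to 10.76). Ptprc, which encodes CD45, ran from 3.99 to 7.72, highest in wildtype 34. Of the 11 leukocyte markers 1 had the higher mean in the knockout. The fibroblast marker median ran from 8.03 to 11.34, also highest in wildtype 34, and 1 of its 9 markers had the higher mean in the knockout. Of 9 markers of pericytes and smooth muscle 8 had the higher mean in the knockout. Of 6 lymphatic markers measured, 3 exceeded background on all arrays and 5 had the higher mean in the knockout. Among them Ccl21 was at 17.06, 16.14 and 13.13 in the knockout and at 15.0, 15.82 and 9.91 in the wildtype. Of 5 erythroid markers, 2 exceeded background on all arrays and 3 had the higher mean in the knockout. The 8 spike-in control transcripts averaged 10.26, 10.42 and 10.12 on arrays 28, 34 and 45, against 9.33, 8.82 and 8.91 on arrays 27, 52 and 37.

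A cell that enters the cycle passes the G1 phase, copies its DNA in S phase and divides in mitosis after G2. D-type cyclins with Cdk4 and Cdk6, and cyclin E with Cdk2, drive the entry and release E2F transcription factors, which switch on the genes of DNA synthesis. Cyclins A and B with Cdk1 then lead into mitosis, whose genes are held off in resting cells by the DREAM complex. The endothelium of adult skin is known to be mostly resting, and resting cells keep many G1 regulators while mitotic transcripts are low.

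The promoters of some of these genes carry letters known from targets of E2F and DREAM. RefSeq promoter windows (GRCr8, 250 bases before to 50 after the start) were at hand for 29 of the 40 genes. The search, on both strands, used the E2F site letters TTTCCCGC, TTTCGCGC, TTTGCCGC and TTTGGCGC, and the letters TTTGAA and TTCGAA of the cell cycle homology region (CHR), the element bound by DREAM. E2F letters were present in 8 of 29 windows (27.6%), against 2.14% of all 33469 windows. They occurred in 6 of the 7 licensing and fork genes with a window and in 0 of the 10 mitotic genes. CHR letters were present in 12 of 29 windows (41.4%), against 19.7% of all windows, and in 7 of the 10 mitotic genes. A CCAAT box was found in 19 of 29 windows (65.5%, against 37.5% of all), and TATAAA in 0 of 29 (against 14.2% of all). The letters were chosen after the windows had been looked at, and they are matches of letters, not sites of binding.

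The windows below show 3 genes of DNA synthesis and 4 genes of mitosis (Cdk1 among the latter), as examples of the E2F and CHR letters and of a window that holds both. Each runs 5′ to 3′ along the gene, from position -150 to position 30 relative to the start, with E2F and CHR letters in capitals. The sequences are those of RefSeq, build GRCr8.
Mcm3, chr9:30733717-30733896, minus strand: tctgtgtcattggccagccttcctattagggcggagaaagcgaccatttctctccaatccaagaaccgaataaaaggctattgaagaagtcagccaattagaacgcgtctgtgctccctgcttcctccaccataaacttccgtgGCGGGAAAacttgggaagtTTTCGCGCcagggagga
Mcm6, chr13:42404323-42404502, minus strand: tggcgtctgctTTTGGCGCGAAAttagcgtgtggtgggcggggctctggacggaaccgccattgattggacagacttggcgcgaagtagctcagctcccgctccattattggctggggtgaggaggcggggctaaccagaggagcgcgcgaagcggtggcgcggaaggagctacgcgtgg
Tyms, chr9:120776054-120776233, minus strand: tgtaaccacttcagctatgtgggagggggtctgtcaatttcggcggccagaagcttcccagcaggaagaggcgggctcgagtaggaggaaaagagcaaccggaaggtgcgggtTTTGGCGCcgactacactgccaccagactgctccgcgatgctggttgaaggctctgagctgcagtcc
Cdk1, chr20:19265143-19265322, plus strand: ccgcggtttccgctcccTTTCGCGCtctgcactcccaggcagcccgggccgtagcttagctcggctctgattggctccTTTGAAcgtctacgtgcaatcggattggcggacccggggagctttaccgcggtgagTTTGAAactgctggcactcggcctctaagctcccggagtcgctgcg
Mki67, chr1:199952564-199952743, minus strand: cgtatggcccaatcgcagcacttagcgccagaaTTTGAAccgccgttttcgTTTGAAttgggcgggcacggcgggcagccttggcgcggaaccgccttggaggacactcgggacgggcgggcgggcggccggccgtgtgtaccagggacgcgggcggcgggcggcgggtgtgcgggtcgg
Plk1, chr1:186147508-186147687, plus strand: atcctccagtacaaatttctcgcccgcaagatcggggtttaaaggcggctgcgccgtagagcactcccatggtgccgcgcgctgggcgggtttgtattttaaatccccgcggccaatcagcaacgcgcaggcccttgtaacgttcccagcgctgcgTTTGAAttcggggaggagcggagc
Birc5, chr10:103571996-103572175, plus strand: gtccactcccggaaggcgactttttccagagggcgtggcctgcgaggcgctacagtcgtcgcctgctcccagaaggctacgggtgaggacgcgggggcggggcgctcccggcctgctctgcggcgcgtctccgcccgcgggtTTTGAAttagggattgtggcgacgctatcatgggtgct
In Mcm3 and Mcm6, which encode subunits of the replicative helicase, the capitals are E2F letters. They overlap on both strands in Mcm6. The same kind of letters begins at -37 in Tyms, the enzyme that makes thymidylate. In Mki67, Plk1 and Birc5 the capitals are CHR letters. The window of Cdk1, the mitotic kinase, holds both, with E2F letters at -133 and CHR letters at -72 and -16.

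The first question was how many of these genes gave a signal beyond background in this endothelium. A gene was counted on an array where its value exceeded the 95th percentile of the 23 GC-binned background probesets of that array, which lay between 5.12 and 5.40. By this rule 15 of the 37 measured genes (40.5%) were above background on all 6 arrays, against 39.2% of all named genes, so the share was near that of genes in general. Another 11 genes were above this background on some arrays and 11 (29.7%) on none, against 45% of all named genes. The roles differed in this count. It was 5 of 8 licensing and fork genes, 2 of 4 of deoxynucleotide synthesis, 6 of 9 of G1 and G1/S, and 2 of 3 CDK inhibitors, but 0 of 4 cyclins and kinase of S, G2 and M phase and 0 of 9 mitotic genes. Against the 95th percentile of 1153 negative gene control probesets, which is a higher limit (8.35 to 9.41) and was chosen after seeing the data, the count of genes above it on all 6 arrays was 5 in place of 15, and 10.5% of all named genes were. Those 5 were Pcna, Cdkn1a, Ccnd1, Ccnd2 and Ccnd3. Of the licensing and fork genes only Pcna thus remained, and of deoxynucleotide synthesis none did. In RNA of a whole sorted population, fewer cycling cells and less RNA per cell cannot be told apart.

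**Figure D1:**
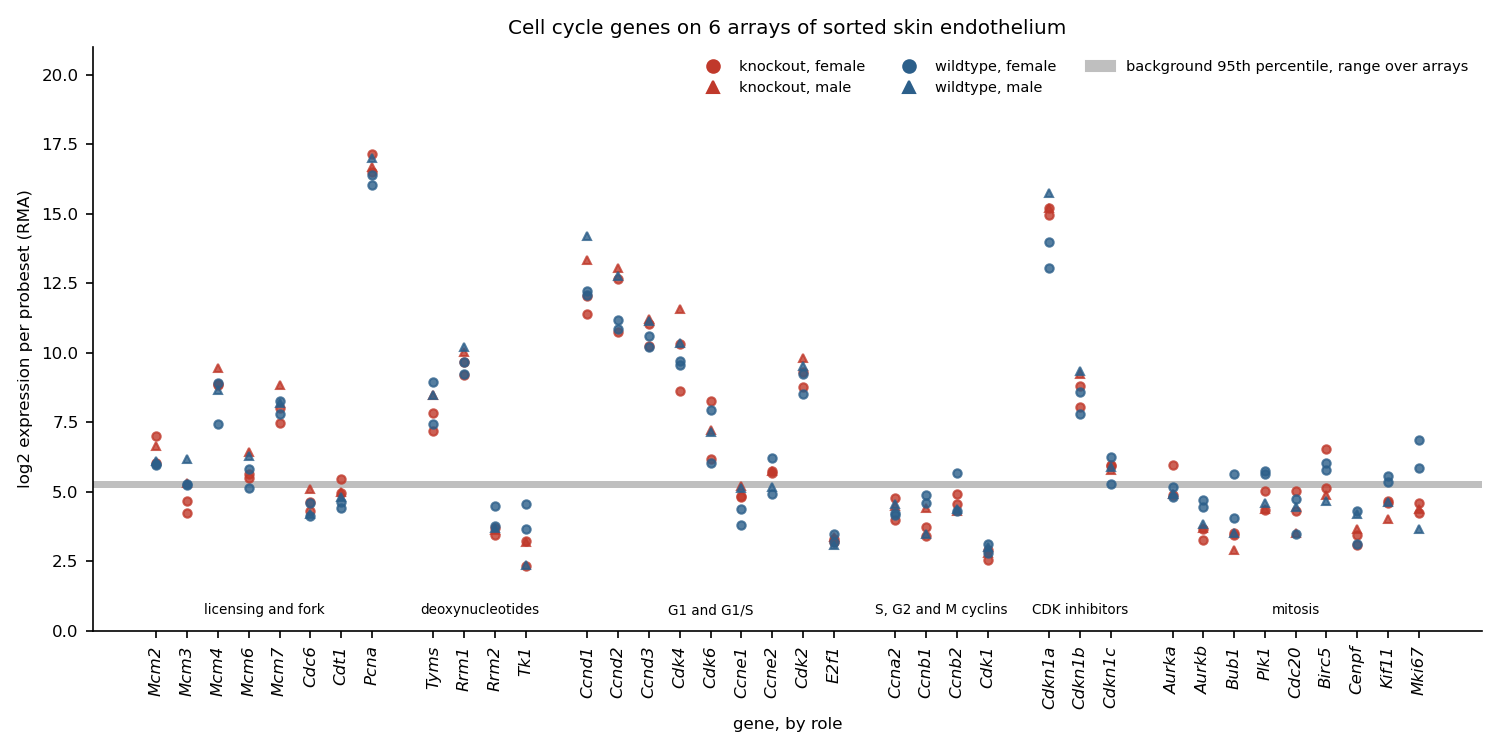
Log2 expression of the 37 measured genes (horizontal axis, by role) on the 6 arrays, with circles for females, triangles for males and colours for genotype. The grey band is the range of the background 95th percentile over the arrays (5.12 to 5.40). The points of Pcna, Cdkn1a, the D cyclins and Cdk4 lie above the band on every array, and those of the mitotic genes lie mostly below it, with Aurkb, Cdc20 and Cenpf above background on no array.

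Among the licensing and fork genes, Pcna, the sliding clamp of DNA polymerases, was at 17.16, 16.51 and 16.68 in the knockout and at 16.03, 16.40 and 17.02 in the wildtype. The groups overlapped, with means of 16.78 ± 0.34 and 16.48 ± 0.50 (SD, n = 3 each). Mcm4, another helicase subunit, was at 8.88, 8.83 and 9.44 in the knockout and at 7.42, 8.91 and 8.66 in the wildtype, with its lowest value in wildtype 34. Mcm2, Mcm6 and Mcm7 were also above background on all 6 arrays. Mcm6 came nearest to the limit, with 5.13 in wildtype 45 against a threshold of 5.12. Mcm3 exceeded background on 3 arrays, Cdt1, a loader of the helicase, on 1, and Cdc6, which acts with it, on 0.

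For deoxynucleotide synthesis, Rrm1, the large subunit of ribonucleotide reductase, was at 9.20, 9.65 and 10.01 in the knockout and at 9.65, 9.24 and 10.21 in the wildtype. Tyms was at 7.18, 7.82 and 8.48 in the knockout and at 7.45, 8.95 and 8.47 in the wildtype. In both genes the genotypes overlapped. Rrm2, the subunit whose supply rises in S phase, ran from 3.45 to 4.49 and Tk1, the S phase thymidine kinase, from 2.33 to 4.56. Neither exceeded background on any array.

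Of the 9 genes of G1 and G1/S, 6 were above background on every array. Ccnd1 (cyclin D1) was at 12.04, 11.38 and 13.34 in the knockout and at 12.07, 12.23 and 14.21 in the wildtype, with the highest value of each group in its male. Ccnd2 was at 12.65, 10.74 and 13.06 in the knockout and at 11.17, 10.86 and 12.76 in the wildtype. Ccnd3 ran from 10.21 to 11.21 over the 6 arrays. Their partner kinase Cdk4 was at 10.30, 8.63 and 11.59 in the knockout and at 9.56, 9.69 and 10.34 in the wildtype, and Cdk6 ran from 6.05 to 8.27. Cdk2, the partner of cyclin E, ran from 8.52 to 9.80. Cyclin E itself was near background. Ccne2 exceeded it on 4 arrays, Ccne1 on 0, and E2f1, the factor that acts on S phase genes, lay between 3.09 and 3.49 on all of them.

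Of the CDK inhibitors, Cdkn1a (p21) was at 15.20, 14.94 and 15.19 in the knockout and at 13.05, 13.97 and 15.75 in the wildtype. The wildtype values lay on both sides of the knockout values. Cdkn1b (p27) was at 8.04, 8.79 and 9.22 in the knockout and at 7.81, 8.59 and 9.35 in the wildtype. Cdkn1c (p57) ran from 5.28 to 6.24 and exceeded background on 5 arrays.

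The cyclins and the kinase of the later phases lay near or under background. Ccna2 (cyclin A2) was at 4.78, 3.98 and 4.47 in the knockout and at 4.22, 4.18 and 4.57 in the wildtype. Ccnb2 was at 4.57, 4.93 and 4.29 in the knockout and at 5.68, 4.30 and 4.39 in the wildtype, and exceeded background only in wildtype 34. Ccnb1 ran from 3.42 to 4.88 and Cdk1 from 2.56 to 3.11, on no array above background.

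Of the 9 mitotic genes measured, 6 exceeded background on some arrays. Birc5 (survivin), a part of the chromosomal passenger complex, was at 5.13, 6.52 and 4.90 in the knockout and at 5.79, 6.02 and 4.65 in the wildtype, above background in 28, 34 and 45. Aurka, a kinase of the spindle poles, was at 5.95, 4.90 and 4.92 in the knockout and at 5.16, 4.80 and 4.91 in the wildtype. By array, the mitotic genes above background numbered 1, 1 and 0 among the knockouts, against 4, 5 and 0 among the wildtypes. The female wildtype arrays thus held most of these signals.

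Comparing knockout with wildtype asked whether these genes are expressed differently where Il33, which encodes an alarmin cytokine stored in the nucleus, is deleted. None of the 34 genes tested passed limma at an adjusted p of 0.05, where 0.00863% of the 11584 genes tested were called, Il33 alone. The smallest adjusted p of a member was 0.999. One member, Aurkb, had an unadjusted p under 0.05 (1 of 34, 2.94%), against 1.98% of all genes tested. The difference was above 0 for 21 members and below 0 for 13. The share above 0 was thus 61.8%, against 54.0% of all genes, and the median difference was 0.085, against 0.033. When the keratinocyte median was added as a covariate this balance turned, to 12 of 34 members above 0 and a median of -0.12. With the spike-in signal as a block it turned to 14 of 34 and -0.076. The median over all genes tested was also below 0 in these fits, at -0.0267 and -0.0225. A member's unadjusted 95% interval reached a median of 0.91 to each side of the difference. Since 3 against 3 arrays allow no exact permutation p under 0.1, none is given.

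**Figure D2:**
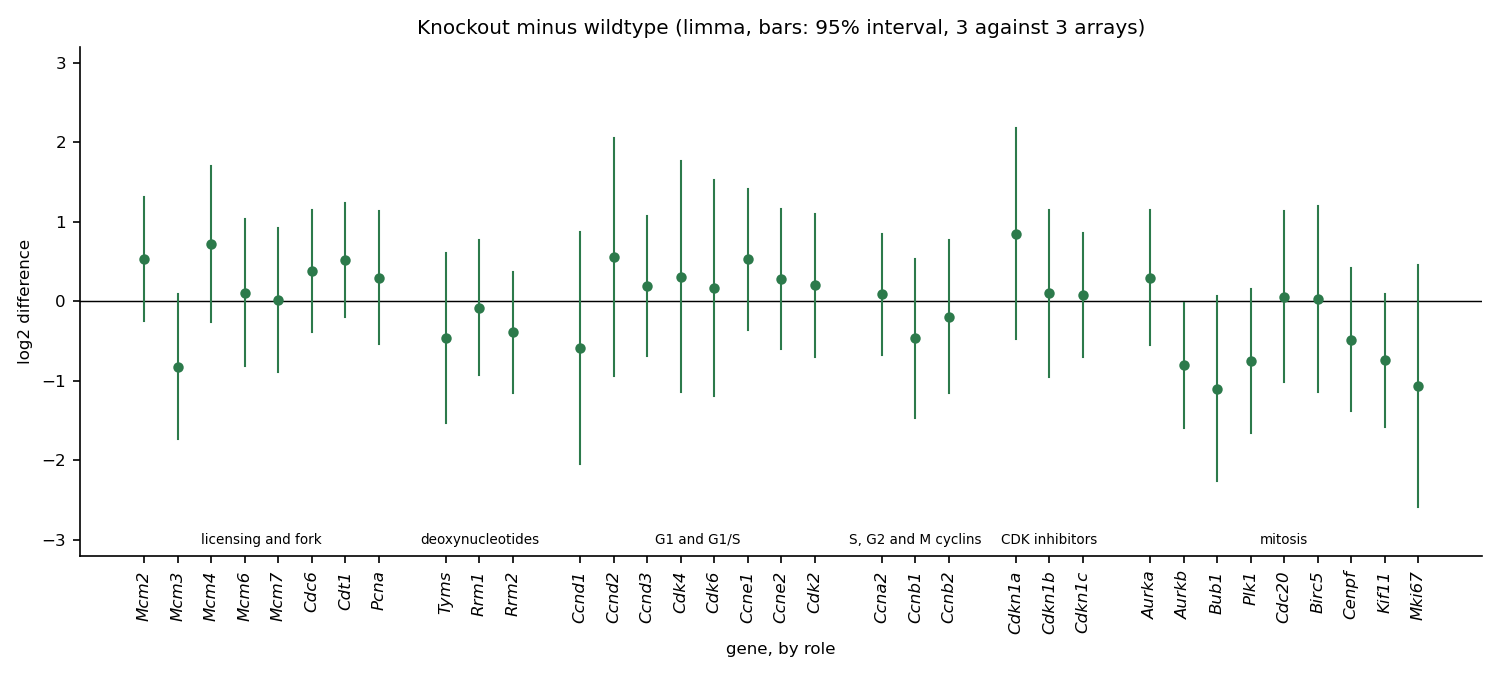
Difference between knockout and wildtype on the log2 scale (vertical axis) for the 34 genes tested, by role, with 95% limma intervals from 3 against 3 arrays. Points of the licensing and G1 genes lie mostly above 0 and those of Aurkb, Bub1, Plk1, Kif11 and Mki67 below it, and the interval of Aurkb alone (-1.59 to -0.02) leaves out 0.

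The roles were not alike in direction. Of the 8 licensing and fork genes 7 were higher by group mean in the knockout (median difference 0.34), and so were 7 of 8 genes of G1 and G1/S (0.24) and 3 of 3 CDK inhibitors (0.10). All 3 tested genes of deoxynucleotide synthesis were lower (median -0.39), as were 2 of 3 tested cyclins of S, G2 and M phase (-0.19) and 6 of 9 mitotic genes (-0.74). No member of any role passed the test, and these counts carry no test of their own.

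Aurkb, the kinase of the chromosomal passenger complex, was at 3.27, 3.65 and 3.68 in the knockout and at 4.72, 4.45 and 3.84 in the wildtype. Every wildtype value lay above every knockout value, and all 6 lay under background. The means were 3.53 ± 0.23 and 4.34 ± 0.45 (SD, n = 3 each), a difference of -0.80 (SE 0.35, limma adjusted p = 0.999). It was the only member lower in all knockout arrays, where 2.89% of all genes tested were.

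Bub1, a kinase of the spindle checkpoint, was at 3.52, 3.46 and 2.90 in the knockout and at 4.04, 5.62 and 3.52 in the wildtype. The groups met at 3.52 and the difference was -1.10 (SE 0.52, limma adjusted p = 0.999). Kif11, a motor that separates the spindle poles, was at 4.61, 4.67 and 4.01 in the knockout and at 5.55, 5.35 and 4.62 in the wildtype. Plk1, a kinase of mitotic entry, was at 5.01, 4.35 and 4.39 in the knockout and at 5.65, 5.75 and 4.60 in the wildtype. Both overlapped between genotypes and were highest in wildtype 34 and 45, with differences of -0.74 (SE 0.37) and -0.75 (SE 0.40).

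Mki67, which encodes the proliferation antigen Ki-67, falls outside the naming rule and was chosen after its values were seen. It was at 4.24, 4.58 and 4.37 in the knockout and at 6.86, 5.84 and 3.67 in the wildtype. Wildtype 34 and 45 were above background, and wildtype 37 was the lowest array of all. The difference was -1.06 (SE 0.68, limma adjusted p = 0.999). The female means differed by -1.94 and the male pair by 0.70.

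The arrays with high values of these genes, wildtype 34 and 45, were those with the highest keratinocyte medians (13.88 and 10.84), followed by knockout 28 (10.72). In knockout 28 Mki67 (4.58), Kif11 (4.67), Plk1 (4.35), Aurkb (3.65) and Bub1 (3.46) were all under background. Wildtype 34 and 45 and knockout 28 also had high spike-in signal. The fibroblast medians were 8.03, 10.18 and 8.57 in the knockout against 11.34, 9.65 and 9.13 in the wildtype, and those of pericytes and smooth muscle 11.4, 11.35 and 10.13 against 10.32, 9.2 and 10.85. The part of these 2 lists in the result was not tested. With the keratinocyte median as a covariate the difference of Mki67 was -0.28, that of Aurkb -0.57, of Bub1 -0.93, of Kif11 -0.48 and of Plk1 -0.55. Without wildtype 34 it was -0.36 for Mki67, -0.61 for Aurkb and -1.28 for Bub1, and without wildtype 45 it was -0.49 for Bub1. Without wildtype 37 these differences were larger, at -1.95 for Mki67, -1.05 for Aurkb and -1.54 for Bub1, again with no member called (smallest adjusted p = 0.502).

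**Figure D3:**
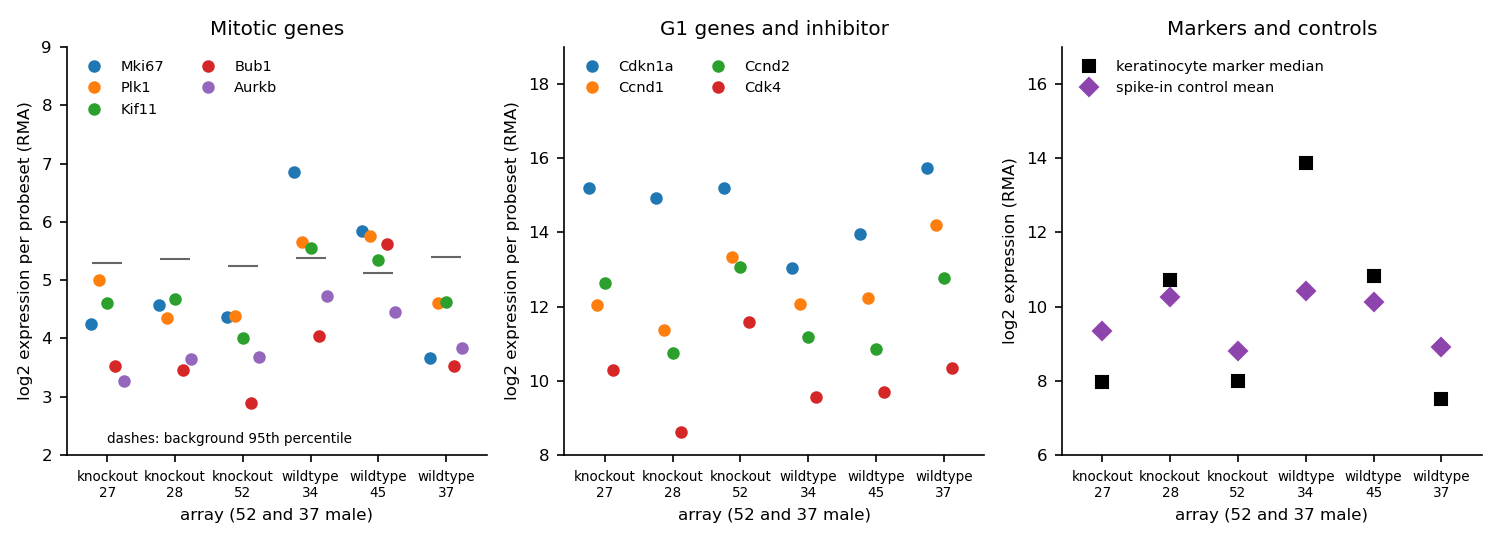
Log2 expression on each array (horizontal axis) of 5 mitotic genes with the background 95th percentile as dashes (left), of Cdkn1a, Ccnd1, Ccnd2 and Cdk4 (middle), and of the keratinocyte marker median and spike-in control mean (right). Mki67 stands above background in wildtype 34 (6.86) and 45 (5.84) alone, the arrays with keratinocyte medians of 13.88 and 10.84. In knockout 28, with a keratinocyte median of 10.72, Mki67 is at 4.58.

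Among the genes of DNA synthesis, Cdt1 was at 4.97, 5.46 and 5.0 in the knockout and at 4.43, 4.62 and 4.81 in the wildtype. The knockout values were all higher, by 0.52 on average (SE 0.32, limma adjusted p = 0.999), and 5 of the 6 lay under background. It was the only member higher in all knockout arrays, where 3.36% of all genes tested were. Mcm3 was at 4.25, 4.68 and 5.31 in the knockout and at 5.25, 5.29 and 6.16 in the wildtype. The female means differed by -0.81 and the male pair by -0.85, and the difference over all animals was -0.82 (SE 0.41, limma adjusted p = 0.999). It was -1.05 with the keratinocyte covariate and -0.52 without wildtype 37. Its unadjusted p was under 0.05 with the keratinocyte, spike-in or sex term in the fit, and it was called in none of these. Mcm4 pointed the other way, with 0.72 (SE 0.44), and with 0.27 without wildtype 34.

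Cdkn1a differed by 0.85 (SE 0.59, limma adjusted p = 0.999) between genotypes. Among females alone the knockout mean was higher by 1.56, the male pair differed by -0.56, and the overall difference was 0.19 with the keratinocyte median as a covariate. Without wildtype 37 it was 1.6, and without wildtype 34 it was 0.25. Ccnd1 differed by -0.58 (SE 0.65). With the keratinocyte median as a covariate it differed by -1.26 and with the spike-in block by -1.15, each with an unadjusted p under 0.05 and none called. Leaving out 1 array moved it to -0.15 without knockout 28, -1.13 without knockout 52, -0.97 without wildtype 34, -0.89 without wildtype 45 and 0.10 without wildtype 37.

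The interaction of genotype with sex, which rests on 1 male per genotype, was called for 0 members and for 0% of all genes tested. The interaction difference was largest in size for Mki67 (2.64, SE 0.82), Cdkn1a (-2.12, SE 0.80) and Ccnb1 (2.11, SE 0.71) among the 34 members tested. Ccnb1 (cyclin B1) differed by -1.17 between the females and by 0.94 between the males.

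A wider list of 82 other cell cycle genes was read from the same fit, of which 70 had a probeset and 56 were tested. None was called and none had an unadjusted limma p under 0.05. The knockout mean was higher for 23 (41.1%, against 54.0% of all genes) and lower for 33, with a median difference of -0.053. On all 6 arrays 21 of the 70 (30%) were above background, against 39.2% of all named genes. On none were 31 (44.3%, against 45%). E2f3, an activating E2F factor, had the smallest p and was at 4.05, 4.46 and 3.26 in the knockout and at 6.60, 4.5 and 4.5 in the wildtype. Its difference was -1.28 (SE 0.59), with the highest value again in wildtype 34. Mcm10, a replication initiation factor, differed by -0.71 (SE 0.39), Gins2 of the replicative helicase by -0.54 (SE 0.32) and Ccnf (cyclin F) by 0.59 (SE 0.36), all of them under background on every array.

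The animals also differed in sex, and the 2 males were compared with the 4 females in a fit with genotype. Mean signal of the D cyclins and Cdk4 was higher in the males and that of most mitotic genes lower, but no member passed limma (smallest adjusted p = 0.114, Ccnd1), where 0.0259% of all genes were called. At an unadjusted p under 0.05 there were 10 of 34 members (29.4%), against 18.6% of all genes. Among them the male mean was above the female mean for Ccnd1, Ccnd2, Cdk4, Cdkn1a, Cdkn1b, Mcm3 and Mcm6 and below it for Birc5, Kif11 and Mki67. Both male arrays were above all 4 female arrays for 10 members (29.4%, against 23.4% of all genes) and below them for 1, Birc5 (2.94%, against 8.3%).

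Ccnd1 had a mean of 13.78 in the males and 11.93 ± 0.38 in the females (SD, n = 4), a difference of 1.85 (SE 0.34, limma adjusted p = 0.114). Both male values, 13.34 and 14.21, lay above the highest female value of 12.23. Ccnd2 differed by 1.56 (SE 0.49), Cdk4 by 1.42 (SE 0.51) and Mcm3 by 0.87 (SE 0.31), with both males above all females in each. Birc5 differed by -1.09 (SE 0.42). The licensing and fork genes were higher in the males for 8 of 8 members and the mitotic genes lower for 8 of 9, with medians of 0.43 and -0.70, against a median of 0.18 over all genes tested.

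Both male arrays had low spike-in signal and keratinocyte medians of 7.99 and 7.51, as had 1 of the 4 females, knockout 27 (7.98). In that female Ccnd2 (12.65) and Cdk4 (10.30) were the highest among the females, while Ccnd1 (12.04) was not. With the keratinocyte median as a covariate 3 of 34 members had an unadjusted limma p under 0.05, against 957 of the 11584 genes tested. The share of members was then near that of all genes. In that fit Ccnd1 differed by 1.43, Ccnd2 by 0.91, Cdk4 by 1.21 and Mcm3 by 0.99. Without knockout 52 Cdk4 differed by 0.72. Without knockout 27 Ccnd1 was called, with a difference of 2.02 (limma adjusted p = 0.0470), as were 74 of all genes tested, against 3 with all arrays. The summed lymphatic marker signal, on the log2 scale, was 13.23 and 10.18 in males 52 and 37, against 15.07 to 17.08 in the females. Its part in the differences between sexes was not tested.

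**Figure D4:**
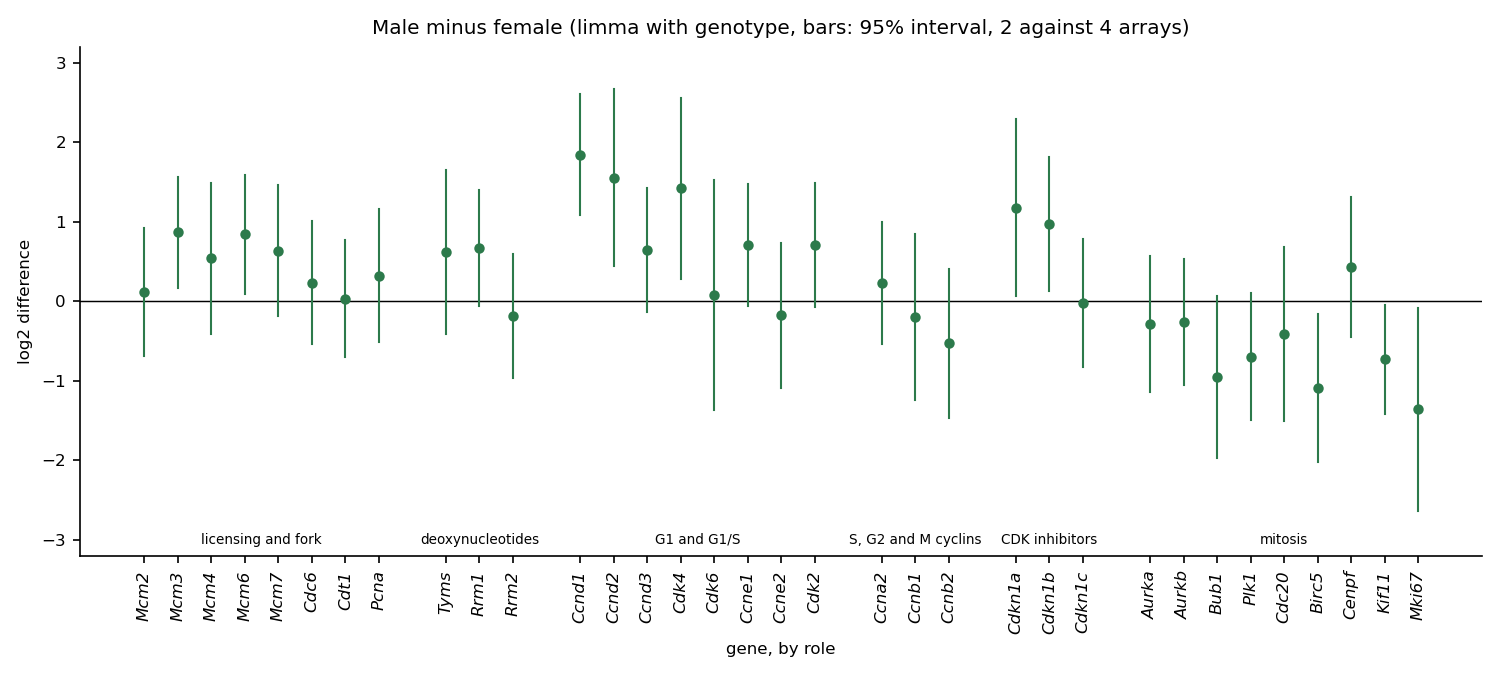
Difference between males and females on the log2 scale (vertical axis) for the 34 genes tested, by role, from a limma fit with genotype, with 95% intervals from 2 against 4 arrays. Ccnd1 (1.85), Ccnd2 (1.56) and Cdk4 (1.42) stand highest, and the mitotic genes other than Cenpf lie below 0.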

How the data were processed

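The authors deposited 1 value per probeset and array, for which the submitters' processing notes name RMA and Affymetrix Expression Console; tool versions and genome build: not given in the sources used here. The deposited values were read as log2 expression, from RMA and their range (1.6 to 19.93); neither states the scale. They were used as deposited. Of 24834 probesets 1646 were controls, and 15049 had 1 gene symbol in the platform annotation; the probeset with the highest mean stood for each of 15037 genes. Tests covered the 11584 genes whose mean reached 3.51, the 25th percentile over rat probesets.

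Differences were tested in limma 3.58.1 (R 4.3.3, lmFit and eBayes) over all these genes, with Benjamini-Hochberg adjustment, two-sided, at 0.05. Sex was tested beside genotype, and their interaction in a model with both. The fit was tested on simulated data. Each array is a separate animal; their number limits the precision. The members and lists, and the rule for naming genes, were chosen with earlier results of these data known. Array values are given for members called, those whose genotypes did not overlap, the 6 with the smallest p between genotypes and the 4 between sexes, and the 2 of highest mean in each role; of the other cell cycle genes the 4 with the smallest p are named. Promoter letters, and the windows shown, were chosen after seeing the data. Alternatives covered the dim filter, scaling, covariates, array weights, variance options, probeset choice, background threshold and leaving out each array.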

Additional observations from a re-analysis of the deposited data

Results flagged for a closer look

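Among the 4 female arrays, the value of a single array stood far from the other 3 for 2 of 37 genes. Mcm2 was 7.01 in knockout 28 against 5.97 to 6.05 in the other females. Mcm4 was 7.42 in wildtype 34 against 8.83 to 8.91. Chance flags about 1 in 20 such groups, and the cause was not tested. Groups of 3 arrays, the genotypes, were not examined in this way.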

How the results depend on the processing

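No paired analysis was possible because the genotypes share no animal number. No member was called between genotypes under any alternative. The members with an unadjusted limma p under 0.05 numbered 0 with the filter at the 50th percentile or centring on array medians, 2 with the keratinocyte covariate, the spike-in block or the trend and robust options, 3 with array weights, 4 with sex as a covariate and 6 in the females alone, and 0 to 7 with 1 array left out (7 without wildtype 37). Of all 11584 genes tested, 229 had such a p in the main fit. This number was 277 with the keratinocyte covariate, 320 with the spike-in block and 225 with the trend and robust options. It was 540 with array weights, 475 with sex as a covariate, 627 in the females alone and 969 without wildtype 37. With another array left out it was 111 to 242. Centring gave 197, and the filter at the 50th percentile gave 141 of 8152 genes. Il33 was no longer called, leaving 0 genes, with no filter, with the filter at the 50th percentile and in the females alone, and 0 to 1 genes were called with 1 array left out (1 only without wildtype 34). The members higher in the knockout were 12 with the keratinocyte covariate. The median member difference was then -0.12, against -0.0267 over all genes, and with the spike-in block it was -0.076, against -0.0225. With 1 array left out the median member difference ran from -0.053 to 0.17 (below 0 without knockout 52 or wildtype 34). The direction of small differences turned. With the keratinocyte covariate Ccna2 became -0.082, Ccnb2 0.17, Ccnd2 -0.11, Cdk4 -0.18 and Cdkn1b -0.24. With the spike-in block Ccna2 became -0.083, Ccnd2 -0.09, Cdk4 -0.20 and Cdkn1b -0.065. In the females alone Birc5 became -0.08 and Cdk4 -0.16, and with array weights Birc5 -0.23. Leaving out 1 array gave ranges that crossed 0 for Aurka (-0.047 to 0.48), Birc5 (-0.47 to 0.34), Ccna2 (-0.10 to 0.30), Ccnb2 (-0.44 to 0.25), Ccnd1 (-1.13 to 0.10), Cdk4 (-0.40 to 1.08), Cdkn1b (-0.29 to 0.48) and Rrm1 (-0.31 to 0.17). Between sexes the median was 0.12 with no filter, 0.33 with centring, 0.11 with quantile normalization again and 0.35 with the keratinocyte covariate, and 0.17 to 0.29 with 1 array left out. Members with an unadjusted limma p under 0.05 were 3 with quantile normalization again and 3 with the keratinocyte covariate. Of the 11584 genes tested 1205 and 957 were, respectively. Such members were 6 with sex alone (2158 genes), and 7 to 9 with 1 female array left out (1666 to 2378 genes). In these last fits 0 to 1 members were called (Ccnd1 without knockout 27). Leaving out a male leaves 1 male in the fit, so no counts are given for it. Without knockout 52 Ccnd1 then differed by 2.06 and Cdk4 by 0.72, and without wildtype 37 by 1.63 and 2.125. Against the 95th percentile of the 1153 negative gene controls, an alternative chosen after seeing the data, 5 members were above background on every array, and 10.5% of named genes.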
